A study of Mus musculus with 6 samples.

Results

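The LIN28, TRIM71 and let-7 axis described here is 8 genes chosen by symbol: Lin28a, Lin28b, Trim71, Igf2bp1, Igf2bp2, Igf2bp3, Hmga2 and Dis3l2. All 8 were found among the 55487 genes of the count table, and all 8 were among the 15748 genes with enough counts to be tested. They were measured in D6AdP cells, a mouse embryonic stem (ES) cell line homozygous for DDX6-AID-mCherry, heterozygous for DCP1a-EGFP and carrying an OsTIR1-FLAG transgene. AID is an auxin-inducible degron, mCherry and EGFP are fluorescent proteins, DCP1a is a decapping factor, and OsTIR1 is the rice F-box protein through which auxins send degron fusions to the proteasome. All 3 groups share this genotype, were plated on mitomycin-C treated fibroblast feeder cells, and were kept with leukemia inhibiting factor, PD0325901 (a MEK inhibitor) and CHIR99021 (a GSK3 inhibitor). The groups differ in the hours with 500 nM of the auxin analog 5-Ph-IAA, which were 0 (before the analog), 3 and 6, and each group had 2 polyA RNA-seq libraries. DDX6, the tagged protein, is an RNA helicase of P-bodies that takes part in decapping, translational repression and microRNA silencing. The labels do not say which promoter drives OsTIR1 or whether the line is 1 clone, and no untreated cells kept for 3 or 6 h and no treated cells without the degron were among these libraries. The analog, time in culture and any DDX6 depletion therefore cannot be told apart. DDX6 protein was not measured.

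The let-7 microRNAs are made from hairpin precursors and are scarce in pluripotent cells. LIN28A and LIN28B bind the let-7 precursors through a cold shock domain and a pair of zinc knuckles. LIN28A recruits the terminal uridylyltransferases TUT4 and TUT7, and DIS3L2 degrades the precursors that carry a uridine tail. When let-7 is present it pairs with mRNAs of early development, including those of LIN28 itself, of the RNA-binding ubiquitin ligase TRIM71, of the chromatin protein HMGA2 and of the mRNA-binding IGF2BP proteins, so LIN28 and let-7 oppose each other. The mouse let-7 microRNAs listed by RefSeq for GRCm38.p6 share 1 seed, bases 2 to 8, given in capitals in 4 of the 9 distinct mature sequences, 5′ to 3′:
let-7a-5p: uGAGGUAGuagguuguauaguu
let-7d-5p: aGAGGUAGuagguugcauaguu
let-7g-5p: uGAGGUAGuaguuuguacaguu
miR-98-5p: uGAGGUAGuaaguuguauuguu

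LIN28 zinc knuckles recognise the bases GGAG in the loop of a precursor. The letters GGAG stood between the mature arms in 9 of 12 let-7 hairpins and in 6.95% of 633 other mouse hairpins with both arms annotated. Among the 50 other hairpins with 23 to 36 bases between the arms, the span of the let-7 hairpins, the share was 14%. The last 24 bases before the 3p arm are shown for 3 hairpins with these letters, in capitals, and for the 3 without them:
Mirlet7a-1: gucacacccaccacugGGAGauaa
Mirlet7d: gagauuuugcccacaaGGAGuuaa
Mirlet7g: ugauaccacccgguacaGGAGaua
Mirlet7b: gugauguugccccuccgaagauaa
Mirlet7c-2: gggcucugccccgcucugcgguaa
Mir98: uuuuaggccccaguaagaagauaa

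The DNA letters that pair with the seed, CTACCTC, occurred 21 times on the sense strand in the longest annotated 3′ UTRs of the 8 genes (GENCODE M21). Lin28b, Trim71, Igf2bp1 and Hmga2 held 4 matches each, Lin28a 2, and Igf2bp2, Igf2bp3 and Dis3l2 1 each. The Dis3l2 match depends on the transcript: its longest 3′ UTR spans 2457 bases, while that of the transcript with the longest coding sequence spans 350 and holds 0 matches, for 20 in all. Of the 13562 tested genes with a 3′ UTR of at least 50 bases, 12.2% held a match, and 12 genes held 4 or more, of which 4 are members. Because longer UTRs hold more matches, each member was set beside tested genes with a 3′ UTR of like length (within a factor of 1.25). As many matches as in Hmga2 occurred in 0.137% of such genes, as in Lin28b in 0.323%, as in Igf2bp1 in 0.398%, as in Trim71 in 0.549% and as in Lin28a in 2.54%. The single matches of Igf2bp2, Igf2bp3 and Dis3l2 were common, since 13.6%, 15.3% and 16.2% of genes of like length held at least 1. The genes were listed for their tie to let-7, so these counts describe the list and are no finding about it. In 13 of the 21 matches the next base was A, which makes an 8mer opposite the first base of the microRNA. All matches of Lin28a, Lin28b and Trim71 and the first match of Igf2bp1 and of Hmga2 are shown in 30 bases of sequence. The 7mer is in capitals, and each is named with the place of the 7mer's first base after the stop codon:
Lin28a at base 909: gcacagcctgttgaaCTACCTCatttttgc
Lin28a at base 1547: gagatcgccacaaacCTACCTCactgtgtt
Lin28b at base 36: acccgggcgggaagtCTACCTCatgcaagc
Lin28b at base 2410: tatacttgttagtaaCTACCTCtgagtttg
Lin28b at base 2582: gtttacagcacatggCTACCTCccagctac
Lin28b at base 3998: aaatgatggcaccgaCTACCTCttcaatca
Trim71 at base 166: aacattgcctaagtcCTACCTCagcttaaa
Trim71 at base 262: agtgataatttctatCTACCTCaactcttt
Trim71 at base 3591: tttagtatggattttCTACCTCaattttgg
Trim71 at base 3617: ttggcaaaaagttgtCTACCTCacgtcggc
Igf2bp1 at base 1715: gctgtgcgaagtaaaCTACCTCaaggtgtg
Hmga2 at base 58: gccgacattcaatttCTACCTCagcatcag

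All 4 matches of Trim71 were 8mers and lay in 2 pairs, 96 and 26 bases apart from start to start. Both matches of Lin28a were 8mers, as were 3 of 4 in Igf2bp1. In Lin28b and in Hmga2 only the first of 4, 36 and 58 bases after the stop codon, was an 8mer. A match is a description of the letters and does not show that a microRNA acts there.

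**Figure D1:**
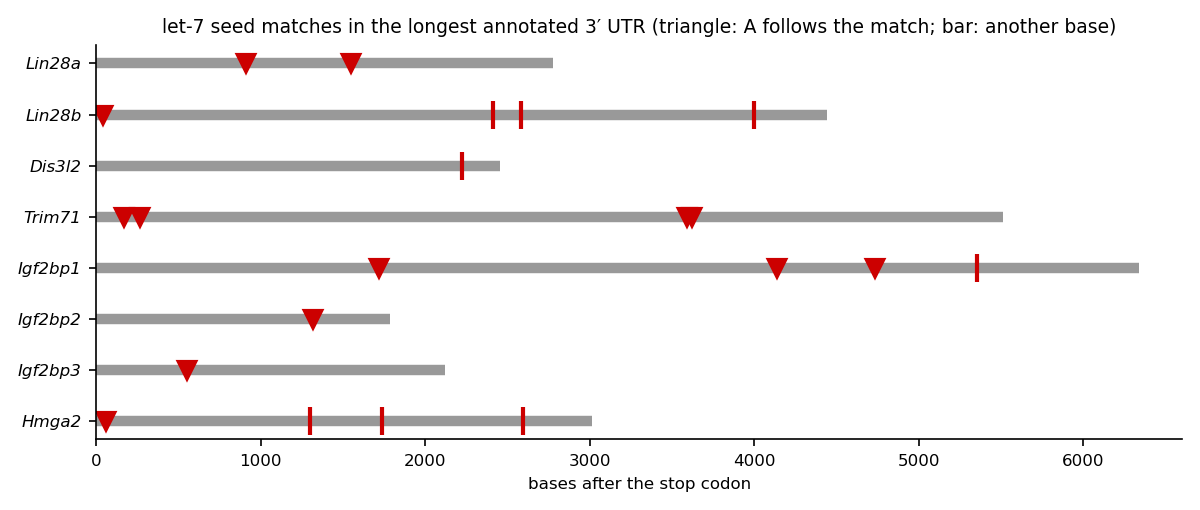
Positions of let-7 seed matches (red) along the longest annotated 3′ UTR of each gene (grey bar, to scale in bases after the stop codon); triangles mark matches followed by A and short bars the others. Lin28b, Trim71, Igf2bp1 and Hmga2 carry 4 matches each, and all 4 of Trim71 are followed by A.

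The libraries held 16357142 to 21846959 counts, so 3 counts stood for 0.137 to 0.183 CPM, the count scaled to library size. The 2 libraries of a time differed beyond sampling noise at every time, with 1.97 to 6.46 of chi-square per degree of freedom, so none was taken for a duplicate. All 10 ES cell markers and all 22 feeder fibroblast markers had counts in every library. The summed level of the ES markers ran from 4336 to 4522 CPM at 0 h, 4578 to 4620 at 3 h and 4167 to 4342 at 6 h. The summed level of the feeder markers ran from 23520 to 25790 CPM at 0 h, 22300 to 22820 at 3 h and 22700 to 25330 at 6 h, and no library of feeder cells alone was used. Reads from ES cells and from feeder cells cannot be told apart, nor can fewer cells of a type and less RNA per cell.

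Levels of different genes were compared as TMM-scaled CPM per kilobase of annotated exon, which is approximate because the union of all exons of a gene can be longer than the transcript in these cells. At 0 h, Igf2bp1 was highest at 67.1 ± 0.471 (SD, n = 2), above 96.1% of tested genes. Lin28a followed at 52.8 ± 3.21 and Trim71 at 44.3 ± 0.0263. Igf2bp3 at 22.2 ± 0.595, Igf2bp2 at 17.6 ± 0.332 and Hmga2 at 14.6 ± 0.873 formed a middle range. Dis3l2 at 3.04 ± 0.0259 and Lin28b at 1.28 ± 0.0330 were lowest, and 28.3% of tested genes were below Lin28b. The 0 h values of neighbours in this order did not overlap. Lin28a and Trim71 could not be ordered later: at 3 h they stood at 45.7 ± 1.43 and 45.9 ± 0.125, and at 6 h at 42.6 ± 1.57 and 43.1 ± 0.269, closer than the spread of Lin28a.

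**Figure D2:**
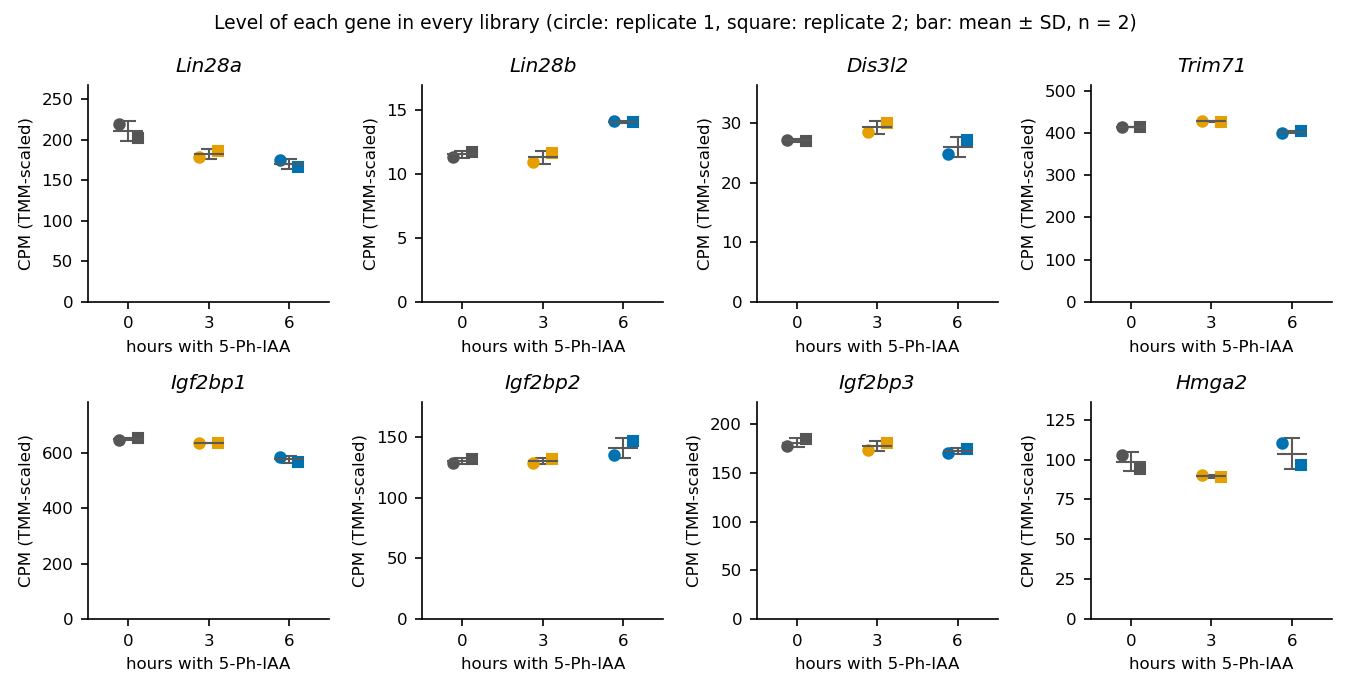
TMM-scaled CPM of each gene in every library against hours with 5-Ph-IAA; circles and squares are replicates 1 and 2, and bars give the mean ± SD (n = 2). Lin28a and Igf2bp1 are lowest at 6 h, Lin28b is highest at 6 h, and Trim71 stays between 400 and 429 CPM.

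The first question was whether the genes that hold let-7 down changed after the analog. Lin28a, the main LIN28 paralog of ES cells (ENSMUSG00000050966, GRCm38 chromosome 4, 134003330 to 134018841, minus strand), measured 219.8 and 201.7 CPM before the analog, 178.6 and 186.6 after 3 h, and 174.8 and 166.0 after 6 h. The 0 h libraries were both above the 3 h libraries, and both 6 h libraries were below them. At 6 h Lin28a fell by 0.31 ± 0.05 (SE) on the log2 scale, a drop of 19%, and edgeR's quasi-likelihood test gave an adjusted p = 0.000149. At 3 h the log2 fold change was -0.21 ± 0.04 with an adjusted p = 0.0857, short of the threshold of 0.05. The 6 h call held in all 15 alternative fits, with log2 fold changes from -0.37 to -0.24. The 3 h change was called in 6 of 15. One of these was the fit with the replicate number as a block (adjusted p = 0.00802), in which the labels do not say what a number marks. It was not called with DESeq2 (adjusted p = 0.112), limma voom (0.0677) or the mean of feeder markers as a covariate (0.710). The 3 h log2 fold change was -0.14 without 0 h replicate 1 and -0.27 without 0 h replicate 2. It was -0.18 without 3 h replicate 1 and -0.24 without 3 h replicate 2.

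Lin28b, the paralog on chromosome 10 (ENSMUSG00000063804, 45376620 to 45486395, minus strand), was scarce. It measured 11.4 and 11.8 CPM before the analog, 11.0 and 11.7 after 3 h, and 14.2 and 14.1 after 6 h, from 219 to 262 counts per library. The 0 h and 3 h libraries overlapped and both 6 h libraries lay above all of them. Lin28b rose at 6 h by 0.29 ± 0.09 on the log2 scale against 0 h (edgeR adjusted p = 0.0341) and by 0.32 ± 0.09 against 3 h (adjusted p = 0.0215). These calls rest on few counts. Against 0 h the call was lost with DESeq2 (adjusted p = 0.235), with no filter on low counts (0.0608) and without 0 h replicate 1 (0.123), 0 h replicate 2 (0.0767), 6 h replicate 1 (0.0956) or 6 h replicate 2 (0.0999), with log2 fold changes of 0.27 to 0.32 throughout. Against 3 h it was lost with DESeq2 (0.173), with the mean of feeder markers as a covariate (0.131) and without 3 h replicate 1 (0.141), 3 h replicate 2 (0.0626), 6 h replicate 1 (0.0733) or 6 h replicate 2 (0.0677).

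Per kilobase, Lin28b stood at 2.28% and 2.57% of the Lin28a level in the 0 h libraries. The share was 2.71% and 2.77% at 3 h and 3.57% and 3.74% at 6 h. Lin28a thus remained the abundant paralog in every library, and the 6 h shares were above all others. The share itself was not tested.

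Dis3l2, the exonuclease that removes uridylated precursors (ENSMUSG00000053333, chromosome 1, 86703808 to 87050095, plus strand), measured 27.2 and 26.9 CPM before the analog, 28.4 and 30.02 after 3 h, and 24.8 and 27.2 after 6 h. The 0 h values lay within those at 6 h. Dis3l2 was called in no comparison: its log2 fold change was 0.11 ± 0.06 at 3 h (adjusted p = 0.568), -0.05 ± 0.07 at 6 h (0.639) and -0.16 ± 0.07 between 3 and 6 h (0.0928).

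Trim71, which represses mRNAs through RNA hairpins and is itself a classic let-7 target (ENSMUSG00000079259, chromosome 9, 114507133 to 114564369, minus strand), was called in no comparison. It measured 413.5 and 413.2 CPM before the analog, 428.8 and 427.2 after 3 h, and 400.1 and 403.7 after 6 h. The times did not overlap, but the steps between them were small. Against 0 h the log2 fold change was 0.05 ± 0.03 after 3 h (adjusted p = 0.627) and -0.04 ± 0.03 after 6 h (0.419), and from 3 to 6 h it was -0.09 ± 0.03 (adjusted p = 0.0604). That last step passed with limma voom (0.0299) and with the replicate block (0.0320).

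The 3 IGF2BP genes encode proteins that bind and stabilise mRNAs, and only Igf2bp1 of the 3 was called. Igf2bp1 (ENSMUSG00000013415, chromosome 11, 95957163 to 96005940, minus strand) measured 646.7 and 653.1 CPM before the analog, 635.6 and 635.5 after 3 h, and 586.4 and 568.6 after 6 h. Both 6 h libraries were below all others. Igf2bp1 fell by 0.17 ± 0.03 on the log2 scale against 0 h (adjusted p = 0.00102), a drop of 11%, in all 15 alternative fits, and by 0.14 ± 0.03 against 3 h (adjusted p = 0.00547). The call against 3 h was lost without 3 h replicate 1 (0.0707) or 3 h replicate 2 (0.0722). At 3 h the log2 fold change was -0.03 ± 0.03 (adjusted p = 0.767).

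Igf2bp2 (ENSMUSG00000033581, chromosome 16, 22059009 to 22163299, minus strand) measured 128.6 and 132.0 CPM before the analog, 128.6 and 131.9 after 3 h, and 135.1 and 146.6 after 6 h. The 0 h and 3 h libraries were alike, and both 6 h libraries were above them. Its log2 fold change at 6 h was 0.11 ± 0.04 (adjusted p = 0.0628), which missed the threshold and passed it in 5 of 15 alternatives. One of these was the fit without 6 h replicate 1 (0.18, adjusted p = 0.0112), and another was the fit with the replicate block (0.11, adjusted p = 0.0182). Against 3 h it was 0.11 ± 0.04 (adjusted p = 0.0608), called in 7 of 15 alternatives, among them the fits without 0 h replicate 2 (0.0461) and without 6 h replicate 1 (0.0128) and the replicate block (0.0178). Igf2bp3 (ENSMUSG00000029814, chromosome 6, 49085223 to 49214957, minus strand) measured 177.7 and 184.6 CPM before the analog, 173.8 and 181.0 after 3 h, and 170.2 and 175.0 after 6 h. It was called in no comparison, and at 6 h stood at -0.07 ± 0.04 on the log2 scale (adjusted p = 0.226). Exons of Malsu1 on the opposite strand cover 18.7% of the Igf2bp3 exons; Malsu1 had 208 to 270 counts per library and Igf2bp3 2822 to 3981, and whether the counting used strand is not given in the sources used here. Per kilobase, Igf2bp2 stood at 26.0% and 26.4% of Igf2bp1 before the analog, 26.5% and 27.1% after 3 h, and 30.1% and 33.7% after 6 h.

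Hmga2, an architectural chromatin protein of proliferating embryonic cells that fibroblasts also express (ENSMUSG00000056758, chromosome 10, 120361275 to 120476469, minus strand), measured 102.8 and 94.4 CPM before the analog, 90.3 and 88.9 after 3 h, and 110.7 and 96.9 after 6 h. The 3 h libraries were below all others, and the 0 h and 6 h libraries overlapped. Hmga2 rose from 3 to 6 h by 0.21 ± 0.06 on the log2 scale (adjusted p = 0.0128). Against 0 h it was not called, with -0.14 ± 0.05 after 3 h (adjusted p = 0.372) and 0.07 ± 0.06 after 6 h (0.380). The rise was not called without 6 h replicate 1 (0.12, adjusted p = 0.171), 3 h replicate 1 (0.23, 0.0565) or 3 h replicate 2 (0.20, 0.0894), and without 6 h replicate 2 the 6 h value against 0 h was called (0.17, 0.0426).

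Feeder markers moved with Hmga2. The mean log2 CPM of the 22 feeder markers was 8.40 and 8.31 before the analog, 8.21 and 8.20 after 3 h, and 8.42 and 8.27 after 6 h. From 3 to 6 h, 5 of the 22 (22.7%) rose and none fell, beside 21.4% called and 9.71% called higher over all tested genes. Their median log2 fold change was 0.12. That count was 13 with library totals, 10 with no filter on low counts, 16 with the replicate block and 3 with DESeq2. Without a single library it ran from 2 (without 3 h replicate 1) to 19 (without 6 h replicate 2), and it was 3 without 3 h replicate 2 or 6 h replicate 1, 9 without 0 h replicate 1 and 11 without 0 h replicate 2. With the feeder mean as a covariate the log2 fold change of Hmga2 from 3 to 6 h was 0.02 ± 0.06 (adjusted p = 0.873), and at 3 h it turned from -0.14 to 0.06 ± 0.06. In the same fit Lin28a at 6 h was -0.30 (adjusted p = 1.85e-10), Igf2bp1 -0.17 (1.47e-07), Lin28b 0.28 (0.0180) and Igf2bp2 0.11 (0.0101), while Lin28a at 3 h was -0.09 ± 0.05 (0.710) and Lin28b from 3 to 6 h 0.33 ± 0.14 (0.131). That fit called Lin28a from 3 to 6 h (-0.21, adjusted p = 0.00459) and Igf2bp2 from 3 to 6 h (0.21, 0.00181). It was the only 1 of the 15 alternatives to call Lin28a there. In the main fit Lin28a from 3 to 6 h was -0.10 ± 0.05 (adjusted p = 0.132). Over all tested genes the covariate fit called 4577 genes at 6 h against 0 h, where the main fit called 3503. The covariate fit leaves fewer residual degrees of freedom than the main fit, so its smaller adjusted p were not read as stronger evidence. The feeder mean was lowest in both 3 h libraries, so that fit cannot tell feeder level from time at 3 h or in the step from 3 to 6 h. No feeder marker was called against 0 h in the main fit, while 11 were called lower at 3 h with the replicate block. The part of feeder RNA in the Hmga2 values was not tested.

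**Figure D3:**
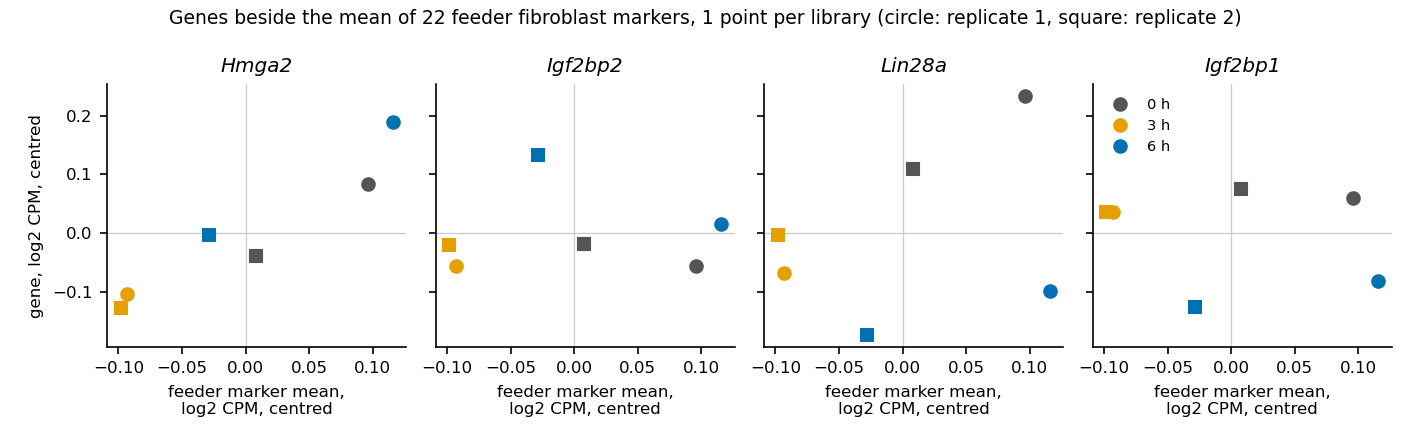
Each gene's log2 CPM (y) against the mean log2 CPM of 22 feeder fibroblast markers (x), both minus their mean over the 6 libraries; 1 point per library, coloured by time, with circles for replicate 1 and squares for replicate 2. Both 3 h libraries are lowest for Hmga2 and for the feeder markers, and 6 h replicate 1 is highest for both.

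Counted over the axis, none of the 8 genes was called at 3 h, where 0.184% of all tested genes were, 0.0699% higher and 0.114% lower (2 of the 8 had an unadjusted p under 0.05 with edgeR, and DESeq2 also called none). At 6 h 3 of the 8 were called, 1 higher (Lin28b) and 2 lower (Lin28a and Igf2bp1). Over all tested genes 22.2% were called at 6 h, 9.92% higher and 12.3% lower. This split depends on the scaling: TMM gave 1562 higher and 1941 lower, and library totals gave 2102 higher and 1430 lower. From 3 to 6 h 3 were called, Lin28b and Hmga2 higher and Igf2bp1 lower, beside 21.4% of all tested genes, 9.71% higher and 11.7% lower (1529 and 1846 genes, against 2046 and 1285 with library totals). Because calls are more frequent at higher levels, the share at a mean of at least 10 CPM, which all 8 genes reached, was 29.5% at 6 h and 28.7% from 3 to 6 h. With 8 genes, 3 calls lie near these shares and are no result about the axis. The median log2 fold change of the 8 was -0.03 at 3 h, -0.05 at 6 h and -0.07 from 3 to 6 h, against medians of -0.00093, 0.0019 and 0.0052 over all tested genes. The comparisons share libraries, and so their values are not independent.

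**Figure D4:**
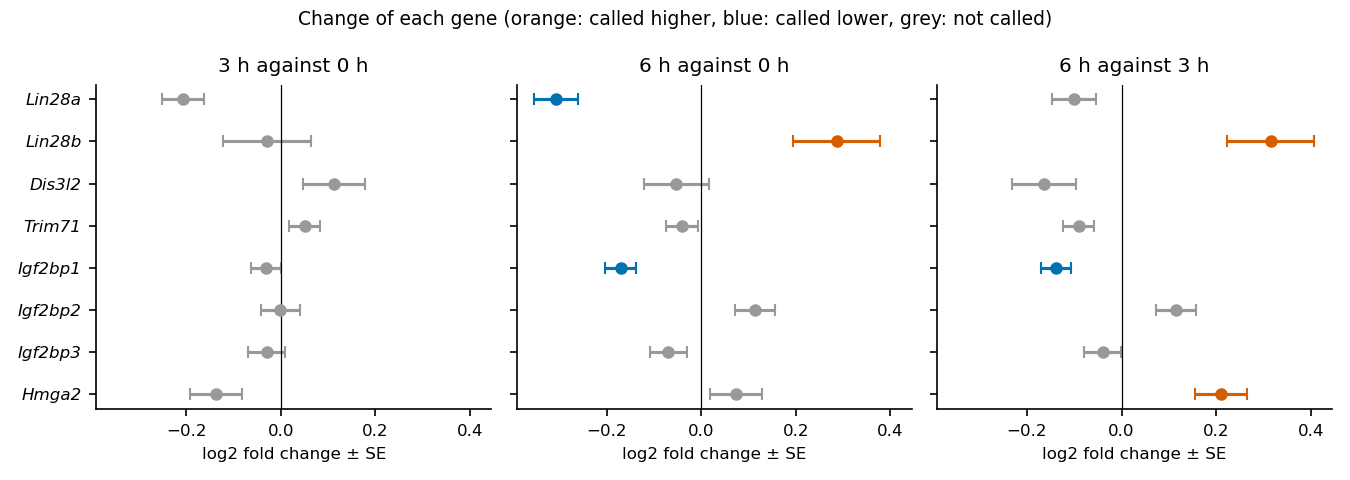
Log2 fold change ± SE of the 8 genes in the 3 comparisons from 1 edgeR fit of 6 libraries; orange and blue mark genes called higher and lower at an adjusted p under 0.05, grey those not called. At 6 h Lin28a (-0.31) and Igf2bp1 (-0.17) lie below 0 and Lin28b (0.29) above it.

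Mature let-7 is too short for these polyA libraries, and the microRNA was not measured. Of 12 let-7 and miR-98 hairpin genes in the table, 11 had no count in any library, and the hairpin of let-7e had 20 counts over the 6 libraries. Wdr82, whose intron holds let-7g, stood at 197 ± 3.38 CPM at 0 h and 166 ± 3.65 at 6 h, when it fell by 0.25 ± 0.04 on the log2 scale (adjusted p = 0.000196). Huwe1, whose introns hold let-7f-2 and miR-98, had a log2 fold change of -0.02 ± 0.03 (adjusted p = 0.705). Another 5 tested host transcripts, found by coordinates and named after their values were seen, were not called at 6 h. 3110039I08Rik, which spans let-7a-2, had a log2 fold change of -0.17 ± 0.06 (adjusted p = 0.0536), and Spaca6, which spans let-7e, 0.07 ± 0.07 (0.553). The other 3 had few counts: 6720427I07Rik (let-7a-1, let-7f-1 and let-7d) stood at -0.01 ± 0.22 (0.981), D630033A02Rik (let-7i) at -0.50 ± 0.37 (0.385) and Lncppara (let-7c-2 and let-7b) at -0.57 ± 0.53 (0.492). Counts of spliced host transcripts need not follow the hairpins.

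Enzymes and cofactors that make, tail or recognise let-7 precursors were counted at 6 h. Of 21 genes of let-7 processing and tailing 4 rose, 8 fell and 9 were not called, and their median log2 fold change was -0.07. Over all tested genes 22.2% were called, and 29.5% of those with a mean of at least 10 CPM. The list was chosen with earlier results of these data known, so its count is no result about let-7 processing. The count of 12 was 5, with 2 higher and 3 lower, without 0 h replicate 2 and again without 6 h replicate 1. It was 6 with DESeq2, and 4 higher and 4 lower with library totals in place of TMM. Tut4 and Tut7 encode the uridylyltransferases that LIN28A recruits. Tut4 stood at 68.6 ± 0.750 CPM before the analog and rose by 0.36 ± 0.05 on the log2 scale to 88.0 ± 4.13 (adjusted p = 4.21e-05). Tut7 was not called, with a log2 fold change of -0.13 ± 0.05 (adjusted p = 0.0566). Trim25, whose product binds RNA and aids that tailing, fell by 0.34 after 3 h (0.000619) and by 0.55 ± 0.04 after 6 h (adjusted p = 7.96e-08), from 246 ± 2.00 to 168 ± 4.07 CPM. Dgcr8, the partner of Drosha in cutting primary microRNAs, fell by 0.25 ± 0.04 (adjusted p = 0.000604).

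Other genes known as let-7 targets were called in both directions. Of 31 tested genes of this list of 32, 7 rose and 13 fell at 6 h, and their median log2 fold change was -0.0033. Over all tested genes 9.92% were called higher and 12.3% lower. At a mean of at least 10 CPM, 29.5% were called in either direction. This list too was chosen with earlier results known, so its count is no result about let-7 targets. DESeq2 called 12 of the list, 3 higher and 9 lower. The kinase gene Cdk6 fell by 0.37 ± 0.04 (adjusted p = 1.81e-05), the heme-sensing repressor gene Bach1 by 0.35 ± 0.05 (7.11e-05), and the insulin receptor gene Insr rose by 0.42 ± 0.06 (0.000128). Myc fell at 3 h by 0.31 (adjusted p = 0.0437) and stood at -0.29 ± 0.06 at 6 h (0.00212). It was the only gene of the list called at 3 h, and none was called there with DESeq2, with the feeder covariate, or without 0 h replicate 1, 3 h replicate 1 or 3 h replicate 2. A seed match was present in 24 of the 32, and of the 23 of these that were tested 4 rose and 10 fell. Of the genes just named, Cdk6 and Myc held 0 matches, Bach1 held 2 and Insr 1. Over all tested genes, the median log2 fold change at 6 h was 0.0028 for 11902 genes without a match, 0.0066 for 1433 with 1 match and 0.027 for 227 with 2 or more. Called genes made up 23.9%, 27.9% and 28.2% of these groups, whose median 3′ UTR lengths were 1248, 2315 and 3525 bases. Called lower were 13.2%, 15.3% and 16.3% of them, and called higher 10.7%, 12.6% and 11.9%. The 610 genes with 1 or more 8mers had a median log2 fold change of 0.0072. Of these, 18.4% were called lower and 11.5% higher. Whether matches and changes go together was not tested. Of the 12 genes with 4 or more matches 4 fell, 1 rose and 7 were not called. Among those not called, also named after their values were seen, Ptafr stood at only 0.42 CPM at 0 h. The annotated 3′ UTRs of D10Wsu102e and Zbtb37, likewise not called, span 122583 and 16999 bases. Beside Igf2bp1, those that fell were Nr6a1 with 8 matches (-0.20 ± 0.05, adjusted p = 0.00489), Trim6 with 6 (-0.16 ± 0.04, 0.0114) and Hic2 with 4 (-0.30 ± 0.04, 3.09e-05), all named after their values were seen.

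RNAs reported to lie downstream of the members were counted at 6 h, when 22.2% of all tested genes were called. Of those with a mean of at least 10 CPM, 29.5% were called. The lists were chosen with earlier results of these data known. Of 8 reported TRIM71 target mRNAs, Inhbb, an inhibin subunit gene, rose by 0.20 ± 0.06 (adjusted p = 0.0367) and the plexin gene Plxnb2 fell by 0.14 ± 0.04 (0.00946), and the list's median was -0.01. Neither was called without 0 h replicate 2, and no gene of the list was called higher without 6 h replicate 2 or with DESeq2. Of 12 reported LIN28-bound mRNAs the cyclin gene Ccnb1 fell by 0.21 ± 0.05 (0.00311) and Pdha1, a pyruvate dehydrogenase subunit gene, by 0.13 ± 0.04 (0.0179), with a median of -0.04. This count of 2 was 1 without 0 h replicate 1, without 0 h replicate 2 and with library totals, and 4 with the feeder covariate. Of 11 reported IGF2BP-bound RNAs 1 rose and 5 fell, with a median of -0.09, and DESeq2 called 3, all lower. Mapk4 fell by 0.78 ± 0.15 from 8.57 ± 0.0528 to 4.99 ± 0.450 CPM (adjusted p = 0.00105), Peg10 by 0.17 ± 0.04 (0.00339) and Myc as above. Of 12 paralogs of the members 2 were called: Trim2, an NHL-repeat relative of Trim71, fell by 0.30 ± 0.04 (5.05e-05), and Dis3l, the cytoplasmic exosome relative of Dis3l2, rose by 0.38 ± 0.07 (0.00106).

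**Figure D5:**
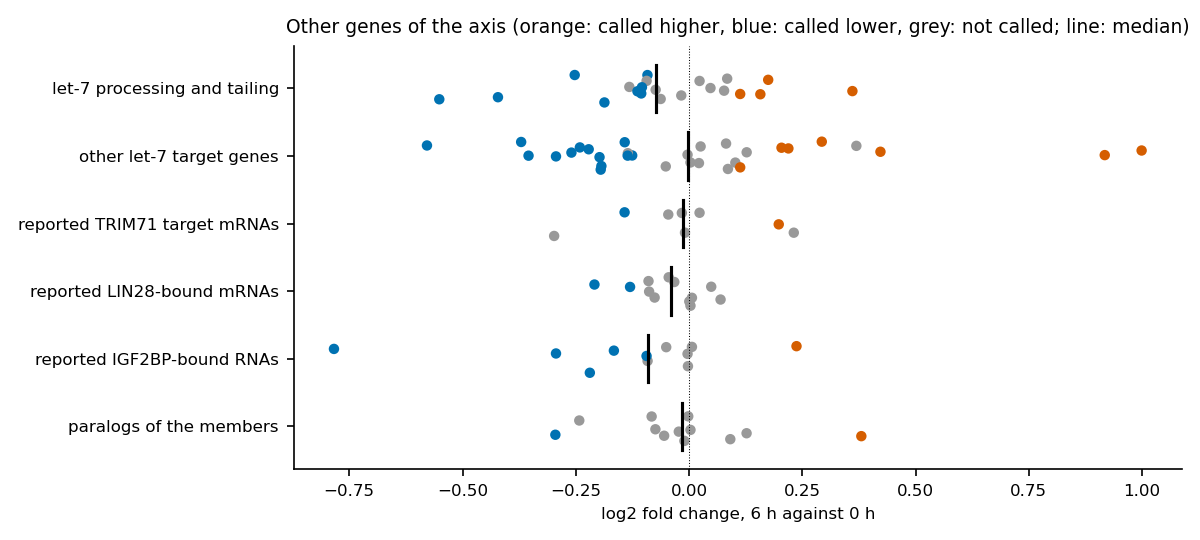
Log2 fold change at 6 h against 0 h of each tested gene in 6 lists around the axis (x), 1 point per gene with random vertical offset; orange and blue mark genes called higher and lower, grey those not called, and black lines the list medians. Every list holds genes on both sides of 0, and medians run from -0.09 to -0.0033.

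The genes whose libraries ran closest to those of the called members were found by the root mean square difference of centred log2 CPM over the 6 libraries, among 11630 genes. Nearest to Lin28a were Cdx1 (difference 0.026) and Zfp865 (0.028), with log2 fold changes of -0.35 and -0.30 at 6 h. Nearest to Lin28b were Crocc (0.022) and Jrkl (0.023), at 0.31 and 0.31. Nearest to Igf2bp1 were Bcat1 (0.010) and Tgoln1 (0.011), at -0.18 and -0.17. These genes were picked for likeness over the same libraries, so their similar fold changes follow from the choice.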

How the data were processed

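The values are raw counts as deposited, integers by Ensembl gene ID with 1 column a library. The tools featureCounts 2.0.3, HISAT2 2.2.1, fastp 0.22.0 and the build GRCm38 (mm10) are named in the submitters' processing notes, and how strand and multiply aligned reads were handled, and with which annotation, was not given in the sources used here. Libraries were stranded and single-end, from 500 to 1000 ng of total RNA with an integrity number over 8.0, per the labels. Symbols, exons and 3′ UTRs came from GENCODE M21 on the same build (55227 of 55487 IDs matched), microRNA sequences from RefSeq.

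Counts were analysed here with R 4.3.3 and edgeR 4.0.16: filterByExpr (minimum 10), TMM factors, and the quasi-likelihood test on 6 libraries in 3 groups fitted jointly (residual degrees of freedom 3, prior 13.5), two-sided, with Benjamini-Hochberg adjustment over 15748 genes. The SE is the log2 fold change divided by the square root of F. The steps were also run on simulated counts with an equal spread at every time. The outcome is not reported here, and the real libraries differed in spread between times. Separate cultures are not mentioned in the labels; p-values then measure only how far these libraries spread, and that spread may be technical. Totals and the resulting floors cover counting error only. Alternatives were other scalings and filters, DESeq2 1.42.0, limma 3.58.1 voom, the replicate number as a block, the feeder mean as a covariate, fits of only the 4 libraries compared, and fits without 1 library. Members and lists were chosen with earlier results of these data known. For each list, up to 3 called members with the smallest adjusted p were named, and any called at 3 h. Tut7 was named beside Tut4 after its values were seen. For each member called at 6 h, the 2 nearest genes with a mean log2 CPM of at least 1 were named, leaving out predicted genes.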

Additional observations from a re-analysis of the deposited data

Results flagged for a closer look

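For 3 of the 8 genes the change at 6 h differed from that at 3 h by the direct test of 6 h against 3 h in the edgeR fit. The difference was 0.32 ± 0.09 on the log2 scale for Lin28b (adjusted p = 0.0215), 0.21 ± 0.06 for Hmga2 (adjusted p = 0.0128) and -0.14 ± 0.03 for Igf2bp1 (adjusted p = 0.00547). Both changes use the same 0 h libraries, which cancel in the difference. In each gene both 6 h libraries lay beyond both 3 h libraries. None of the 3 calls was made without 3 h replicate 1 or without 3 h replicate 2, and those of Lin28b (adjusted p = 0.131) and Hmga2 (0.873) were lost with the feeder covariate. The Lin28b call was also lost with DESeq2 (0.173) and without 6 h replicate 1 (0.0733) or 6 h replicate 2 (0.0677), and the Hmga2 call without 6 h replicate 1 (0.171). Groups of 2 libraries are too small to look for single libraries that stand apart.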

How the results depend on the processing

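Of 359 values of single members under the alternatives, 309 kept their direction and their side of the threshold, 18 lost the call, 22 gained one and 10 changed sign. At 6 h the count of called members was 3 in the main fit. It was 2, both lower, with DESeq2 and with no filter on low counts. With library totals, a filter of at least 1 CPM in 2 libraries, the replicate block and the feeder covariate it was 4, 2 higher and 2 lower. At 3 h the count of called members was 1, Lin28a, with no filter on low counts, with the replicate block and with only the 4 libraries compared, and ran from 0 to 1 without a library. From 3 to 6 h it was 5 with the replicate block and ran from 0 to 4 without a library. Over all genes, 29 were called at 3 h, against 234 with no filter, 262 with the replicate block, 47 with the feeder covariate, 82 with 4 libraries, 12 with DESeq2 and 4 to 260 without a library. At 6 h DESeq2 called 1697 genes in place of 3503. From 3 to 6 h it called 1438 in place of 3375, the feeder covariate 1873, and fits without a library 1531 to 3682. The causes were not tested, except that fits without a library hold fewer samples, and a lone library is then assumed to vary like the other groups. Signs changed for Igf2bp2 at 3 h (0.00032 with DESeq2-type size factors, 0.0028 with no filter, 0.00041 with DESeq2, with a range without a library from -0.019 to 0.017), Lin28b at 3 h (-0.076 to 0.016 without a library, above 0 without 3 h replicate 1), Hmga2 at 6 h (-0.017 without 6 h replicate 1, 0.17 without 6 h replicate 2) and Dis3l2 at 6 h (0.016 and -0.12 in the same fits), and, with the feeder covariate, Hmga2 at 3 h (0.063) and Igf2bp3 from 3 to 6 h (0.014). Counting 8mers only left 13 of 21 seed matches, by construction. DESeq2 gave no adjusted p for Lin28b at 3 h. Same-numbered libraries deviated from their group means with correlations of 0.037, 0.040 and -0.021 over all tested genes. Genes with few counts weigh in these values, so they cannot exclude pairing. The replicate numbers were not taken as pairs because the labels do not say what a number marks.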
